A study of Mus musculus with 2 samples.

Results

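Mmp8 or Ngp neutrophils were those neutrophils of barium chloride-injured mouse quadriceps that carried at least 3 molecules of Mmp8 and Ngp messenger RNA together. Of 13047 kept cells, 5516 passed a neutrophil gate and 948 of these were such cells, 654 in the 9 h library and 294 in the 2 h library. The gate asked for S100a8 and S100a9 at 100 or more per 10000 unique molecular identifiers (UMIs, counted RNA molecules), for at least 3 of the 6 neutrophil genes Csf3r, Il1r2, Hdc, Cxcr2, G0s2 and Retnlg, and for no UMI of Pdgfra, Cdh5, C1qa or Ccr2. Because the cells were chosen by their own Mmp8 and Ngp counts, those levels are a description. They were set against the gated neutrophils with 0 to 2 such UMIs in the same library, 3275 cells at 9 h and 1293 cells at 2 h, called other neutrophils here. The study profiled single mononuclear cells, frozen alive before capture, from the quadriceps of wild-type C57BL/6J mice that had received 100 µl of 1.2% barium chloride, a salt that kills muscle fibres. The muscle was taken 9 h or 2 h after the injection, and 1 droplet library was made per time. Uninjured muscle was not analysed here, and the number of animals behind each library was not given in the sources used here. A single library stands for each time, which allows no test over samples, and all intervals below (95%) cover counting error only and treat each UMI as independent.

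Neutrophils fill their granules in the bone marrow in a fixed order: azurophil granule proteins such as myeloperoxidase are made by promyelocytes, specific granule proteins such as lactoferrin and the collagenase MMP8 by the following stages, and gelatinase granule proteins such as MMP9 by nearly mature cells. The messages for these proteins are largely shut off by the time a cell leaves the marrow, while the proteins stay stored and are released in tissue. High levels of granule messages are a known feature of immature marrow neutrophils.

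The upstream regions of 4 genes that were high together in these cells are shown, since the marrow factors C/EBP-epsilon and PU.1 are known to act on granule genes. Mmp8 (neutrophil collagenase) and Ngp (neutrophilic granule protein, a cathelin family member) defined the cells, Retnlg (resistin-like gamma, a secreted protein of neutrophils) was their leading companion, and Lcn2 encodes the siderophore-binding granule protein lipocalin-2. Mmp8 lies at chr9:7558456-7568485 on the plus strand of mm10, Ngp at chr9:110419747-110423012 on the plus strand, Retnlg at chr16:48872621-48874496 on the plus strand and Lcn2 at chr2:32384633-32388252 on the minus strand. Those positions are from GENCODE, whose starts differ from the RefSeq starts used for the windows. Each line gives bases before the RefSeq start (build GRCm38.p6), 5′ to 3′ on the strand of the gene, 250 for Mmp8 and Retnlg. For Ngp the last 61 bases and for Lcn2 the last 58 are exon in GENCODE and were left out, leaving 189 and 192. The Lcn2 window still lies within the GENCODE gene, since a longer transcript starts further upstream and has a coding exon there. The windows are chr9:7558179-7558428 for Mmp8, chr9:110419558-110419746 for Ngp, chr16:48872358-48872607 for Retnlg and chr2:32387798-32387989 (minus strand) for Lcn2. Capitals mark matches on either strand to a C/EBP-type motif, TTNNGNAA, or to the PU.1-type core GAGGAA.
Mmp8: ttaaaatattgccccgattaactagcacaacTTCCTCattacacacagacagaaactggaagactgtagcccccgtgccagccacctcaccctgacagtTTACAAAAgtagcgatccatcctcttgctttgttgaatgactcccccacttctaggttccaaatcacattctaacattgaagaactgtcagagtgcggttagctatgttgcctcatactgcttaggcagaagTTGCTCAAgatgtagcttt
Ngp: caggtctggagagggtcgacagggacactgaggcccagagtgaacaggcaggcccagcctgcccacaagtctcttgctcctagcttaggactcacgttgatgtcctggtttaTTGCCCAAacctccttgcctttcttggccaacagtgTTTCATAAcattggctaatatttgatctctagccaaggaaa
Retnlg: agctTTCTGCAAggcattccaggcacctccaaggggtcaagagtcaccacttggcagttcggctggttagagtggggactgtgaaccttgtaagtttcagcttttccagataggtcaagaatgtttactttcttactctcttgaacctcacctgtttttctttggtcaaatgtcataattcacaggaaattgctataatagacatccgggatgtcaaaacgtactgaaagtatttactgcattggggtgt
Lcn2: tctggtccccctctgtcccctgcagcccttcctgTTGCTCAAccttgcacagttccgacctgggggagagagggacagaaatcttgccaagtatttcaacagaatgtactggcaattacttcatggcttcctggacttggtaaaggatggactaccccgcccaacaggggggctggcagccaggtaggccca
The C/EBP-type motif matched 2 times each before Mmp8 and Ngp, and 1 time each before Retnlg and Lcn2. The PU.1-type core matched 1 time, before Mmp8. Of 32851 RefSeq windows of 250 bases, 36.8% held the C/EBP-type motif and 23.3% the PU.1-type core. At 192 bases the shares were 31.4% and 18.2%, and at 189 bases 31.1% and 17.9%. In the 4 windows shown no matches overlapped. A match describes the letters and is no binding site by itself.

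The defining RNA was mainly Mmp8. Among the 9 h cells 651 of 654 had Mmp8 and 122 (18.7%) had Ngp, and among the 2 h cells 293 of 294 had Mmp8 and 43 (14.6%) had Ngp. Both genes were present in 119 cells at 9 h and 42 at 2 h, Mmp8 alone in 532 and 251, and Ngp alone in 3 and 1. Summed Mmp8 and Ngp ran between 3 and 39 UMIs per cell with a median of 5 at 9 h, and between 3 and 123 UMIs with a median of 4 at 2 h. The threshold split a continuous distribution: 194 cells at 9 h and 100 at 2 h sat just inside it at 3 UMIs, and 330 and 163 cells just outside it at 2 UMIs. As set by the rule, Mmp8 stood at 2053 CPM (UMIs of a gene scaled to the same total in every group) in the 9 h members against 200 CPM in other 9 h neutrophils, and at 1716 CPM in the 2 h members against 221 CPM in other 2 h neutrophils. Ngp stood at 187 CPM against 9.61 CPM at 9 h, and at 253 CPM against 6.33 CPM at 2 h. The gate did not catch every carrier, since gated neutrophils held 64.0% of the Mmp8 UMIs of all kept cells at 9 h and 82.3% at 2 h.

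**Figure D1:**
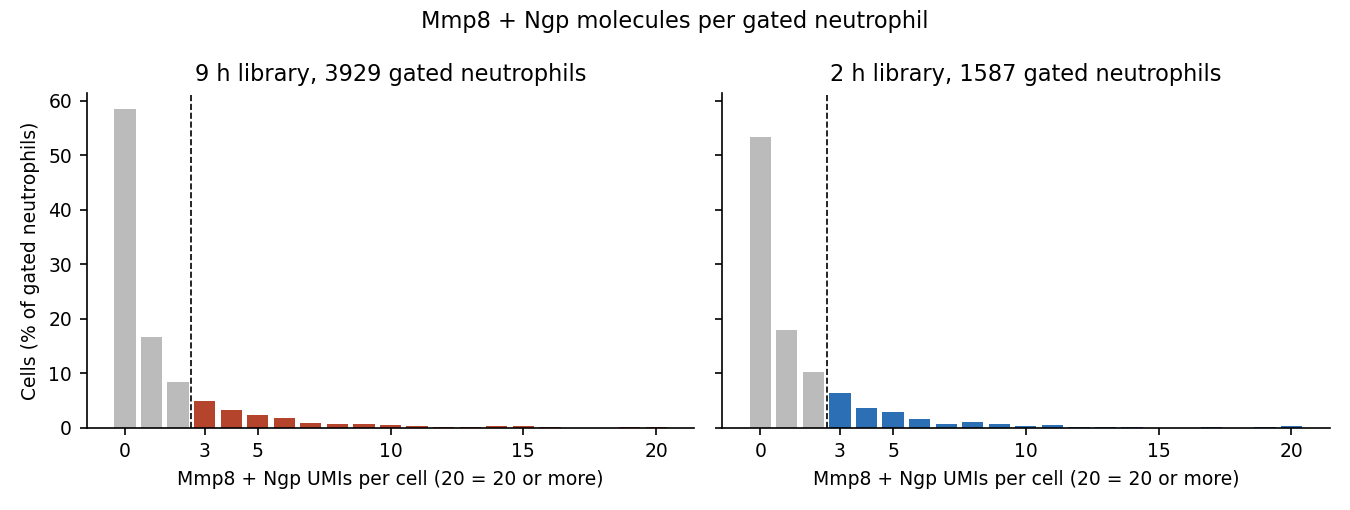
Share of gated neutrophils (percent, vertical axis) at each number of Mmp8 and Ngp UMIs per cell (horizontal axis, 20 standing for 20 or more), with the 9 h library on the left and the 2 h library on the right. Coloured bars right of the dashed line are the Mmp8 or Ngp neutrophils (3 UMIs or more) and grey bars the other neutrophils; the bars decline without a gap at the threshold.

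The name granule-rich held for some specific granule messages and not for early granule messages. The azurophil genes Mpo, Elane, Prtn3, Ctsg, Prss57 and Ms4a3, which encode or accompany the first granule proteins, gave 1 UMI in all 654 cells at 9 h (0.595 CPM, 0.0151 to 3.32) and 2 UMIs in all 294 cells at 2 h (2.34 CPM, 0.283 to 8.45). Other neutrophils gave 7 UMIs at 9 h and 9 UMIs at 2 h. Ltf, which encodes lactoferrin, had 9 UMIs in the 9 h members (5.36 CPM) and 18 in the 2 h members (21.05 CPM). Camp, which encodes the cathelicidin precursor, had 3 UMIs (1.79 CPM) and 22 UMIs (25.7 CPM). A single 2 h cell, described below, held 12 of those 18 Ltf UMIs and all 22 Camp UMIs. Neutrophils with 0 Mmp8 and Ngp UMIs had 32 Ltf UMIs at 9 h (7.72 CPM) and 19 at 2 h (11.3 CPM). Their Camp UMIs numbered 3 at 9 h (0.724 CPM) and 0 at 2 h. The proliferation marker Mki67 had 1 UMI at 9 h and 3 UMIs at 2 h, and Cebpe, the gene of the factor C/EBP-epsilon, had 16 and 9 UMIs. All 6 markers of these cells (Mmp8, Ngp, Retnlg, Wfdc21, Lcn2 and Mrgpra2b) were detected in members and in other neutrophils of both libraries, so their detection does not set the cells apart. The cells are called by their rule, Mmp8 or Ngp neutrophils, and no stage is assigned to them.

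One 2 h cell stood apart. It had 6658 UMIs in all and held 104 of the 216 Ngp UMIs of the 2 h members, all 22 Camp UMIs, 12 of 18 Ltf UMIs, 11 of 13 UMIs of Chil3 (a chitinase-like secreted protein) and 6 of 28 UMIs of Cd177 (a neutrophil surface glycoprotein). The same cell had 19 Mmp8 and 215 Retnlg UMIs, and no UMI of Il1b, of Mki67 or of the fibroblast gene Dcn. The 9 h cell richest in Ngp had 12 Ngp UMIs among 1849 and no Ltf, Camp or Chil3. These 2 cells were picked for their Ngp counts, which the rule used.

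Members made up 16.6% of gated neutrophils at 9 h (15.5% to 17.8%) and 18.5% at 2 h (16.6% to 20.5%), a ratio of 0.899, and the intervals overlapped. Of all kept cells they were 8.03% at 9 h and 6.00% at 2 h. Deeper cells pass a threshold of 3 UMIs more easily, and gated neutrophils of the 2 h library were deeper: median UMIs were 1975.5 in members and 1632 in other neutrophils at 9 h, and 2467 and 1943 at 2 h. After each cell was thinned to 1000 UMIs, which left out 7 members and 230 other neutrophils at 9 h and 2 and 72 at 2 h, at least 3 Mmp8 and Ngp UMIs remained in 7.91% of gated cells at 9 h and 5.95% of those at 2 h. The ratio of these shares was 1.33, and at least 1 UMI remained in 31.6% and 32.6%. The order of the times turned after thinning, so no order is given for the share. Free RNA gives such UMIs to cells that do not make them. Cells of fibro-adipogenic progenitor type (at least 2 Pdgfra UMIs and no Csf3r UMI), which should lack both genes, reached 3 UMIs in 8 of 1391 cells (0.575%) at 9 h and 2 of 1340 cells (0.149%) at 2 h, although their median depth was 8975 and 8644.5 UMIs.

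Retnlg, Wfdc21 and Lcn2 were abundant in members and higher than in other neutrophils in both libraries. Per cell, Retnlg ran between 0 and 215 UMIs with a median of 15 in the 9 h members, against 0 to 204 with a median of 2 in other 9 h neutrophils. Retnlg stood at 10877 CPM (10720 to 11036) in members against 3684 CPM (3636 to 3732) in other neutrophils at 9 h, and at 8693 CPM (8496 to 8893) against 3289 CPM (3221 to 3358) at 2 h. The ratios were 2.95 and 2.64, and both groups had to pass a gate in which Retnlg was 1 of 6 genes. Lcn2 stood at 3982 CPM against 2443 CPM at 9 h, a ratio of 1.63 (1.58 to 1.68), and at 1838 CPM against 1115 CPM at 2 h, a ratio of 1.65 (1.55 to 1.75). Wfdc21, a small secreted protein with a whey acidic protein domain, stood at 2078 CPM against 1157 CPM at 9 h and at 1324 CPM against 687 CPM at 2 h, ratios of 1.80 and 1.93. For these 3 genes the counting intervals of members and other neutrophils did not touch in either library. At 1000 UMIs per cell, 87.6% of 9 h members had a Retnlg UMI, against 58.4% of other 9 h neutrophils and 1.94% of the Pdgfra cells, and at 2 h the shares were 88.7%, 69.1% and 0.97%.

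Few other genes separated the groups. At 9 h, 3348 genes were measured (at least 50 UMIs over both groups and a mean of at least 20 CPM); 13 were higher in members past 2-fold (0.388%) and 8 lower (0.239%), with the ratio taken after adding 10 CPM to each level. At 2 h, 3443 genes were measured, with 12 higher (0.349%) and 50 lower (1.45%). In both libraries the same 3 of 3007 genes were higher past 2-fold (0.0998%): Mmp8, Ngp and Retnlg. None was lower past 2-fold in both (0.00%). The other 9 h genes higher past 2-fold were Ly6g, Ifitm6, Pglyrp1, Tspo, Emb, R3hdm4, Rnf144a, Il1rl1, Saa1 and Ptx3, of which the last 3 had over 50% of their member UMIs in 1 cell. At 2 h they were Adpgk, Bmx, Acpp, Stfa1, Cstdc5 and the class II genes Cd74, H2-Aa, H2-Ab1 and H2-Eb1, and again the class II genes had over 50% in 1 cell. The median log2 ratio of all genes was -0.04 at 9 h and -0.06 at 2 h. With each cell thinned to 1000 UMIs the 9 h counts became 26 higher and 8 lower.

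A threshold of 1.5-fold, added after the values had been seen, gave 65 genes higher (1.94%) and 44 lower (1.31%) at 9 h, and 64 higher (1.86%) and 157 lower (4.56%) at 2 h. In both libraries 15 were higher (0.499%) and 10 lower (0.333%). Among the higher genes were Mmp8, Ngp, Retnlg, Lcn2, Wfdc21, Ly6g, Ifitm6, Lyz2, Tkt, Rflnb, Ly6c2, Mgst1, Ctnnbip1 and Sfxn5. Ly6g, the surface protein by which mouse neutrophils are sorted, stood at 119 CPM (103 to 137) in members against 45.5 CPM (40.3 to 51.1) in other neutrophils at 9 h, and at 91.2 CPM (72.1 to 114) against 44.7 CPM (37.0 to 53.4) at 2 h. Ly6c2, which encodes a related Ly6 surface protein and has close sequence neighbours, stood at 170 against 106 CPM at 9 h and 69.0 against 33.9 CPM at 2 h. Ifitm6, an interferon-induced transmembrane family member, stood at 481 CPM against 190 CPM at 9 h, a ratio of 2.53, and at 419 CPM against 241 CPM at 2 h, a ratio of 1.73. Lyz2, which encodes lysozyme, stood at 262 CPM against 129 CPM at 9 h and at 731 CPM against 438 CPM at 2 h. Tkt, the pentose phosphate enzyme transketolase, had ratios of 2.28 at 9 h and 1.83 at 2 h, and Mgst1, a microsomal glutathione transferase, had 1.83 and 1.60.

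**Figure D2:**
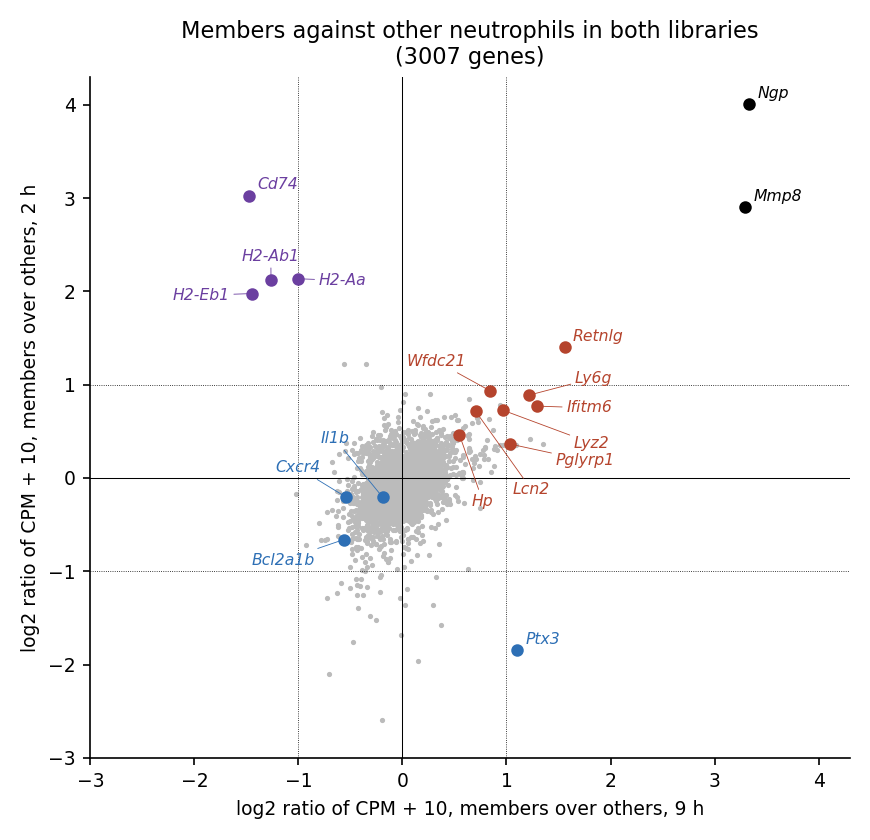
Log2 ratio of CPM plus 10 in Mmp8 or Ngp neutrophils over other neutrophils, at 9 h (horizontal axis) and at 2 h (vertical axis), with 1 point for each of 3007 genes measured in both libraries and dotted lines at 2-fold. Retnlg lies at 1.56 and 1.40 beside the rule genes Mmp8 and Ngp (black); the class II genes (purple) lie at opposite signs in the 2 libraries.

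The specific granule list was read gene by gene. Of its 10 genes 8 were measured at 9 h, of which 3 were higher past 2-fold and none lower, with a median log2 ratio of 0.83. At 2 h, 7 were measured, of which 2 were higher and none lower, with a median of 0.72. Ltf and Camp, also on the list, were too low to count as measured in either library. The counts and medians include Mmp8 and Ngp, which the rule chose. Without them 1 of 6 was higher at 9 h (Pglyrp1), beside 0.388% of all genes, and 0 of 5 at 2 h, beside 0.349%, with medians of 0.63 and 0.60. Hp, which encodes the haemoglobin-binding protein haptoglobin, stood at 892 CPM against 607 CPM at 9 h and at 763 CPM against 551 CPM at 2 h. Pglyrp1, a peptidoglycan-binding protein, stood at 239 CPM against 112 CPM at 9 h, a ratio of 2.14 (1.89 to 2.42), and at 628 CPM against 486 CPM at 2 h, a ratio of 1.29 (1.17 to 1.43). Cd177 stood at 348 CPM against 360 CPM at 9 h and at 32.7 CPM against 18.2 CPM at 2 h. Chil3 stood at 336 CPM against 241 CPM at 9 h. At 2 h it was too low to count as measured, at 15.2 CPM against 8.94 CPM. The single cell described above held 11 of its 13 UMIs in the 2 h members, and other 2 h neutrophils had 24 UMIs in 8 cells.

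Genes of gelatinase granules and of the oxidase were read in the same way. In the gelatinase list all 6 genes were measured and none passed 2-fold in either library, with medians of 0.28 at 9 h and 0.17 at 2 h. Mmp9, the gelatinase itself, stood at 614 CPM against 421 CPM at 9 h and at 582 CPM against 414 CPM at 2 h. In the list for the NADPH oxidase, the enzyme of the respiratory burst, none of 6 genes passed 2-fold, with medians of 0.12 and 0.14. Cybb, its membrane subunit, stood at 41.7 CPM against 40.8 CPM at 9 h and at 45.6 CPM against 19.7 CPM at 2 h.

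Of the receptors that govern traffic between marrow, blood and tissue, Cxcr4 had a lower CPM in members in both libraries, but at 2 h its shares of cells did not differ beyond counting error. Cxcr4, the receptor that retains neutrophils in marrow and returns with age, stood at 533 CPM (499 to 569) against 779 CPM (757 to 801) at 9 h, and at 808 CPM (749 to 870) against 935 CPM (898 to 972) at 2 h. Cxcr2, the receptor for neutrophil-drawing chemokines and a gate gene, stood at 821 CPM against 727 CPM at 9 h and at 718 CPM against 679 CPM at 2 h. Icam1, an adhesion molecule, stood at 133 CPM against 179 CPM at 9 h and at 10.5 CPM against 35.7 CPM at 2 h. The ratios of Cxcr4, 0.684 at 9 h and 0.865 at 2 h, did not reach 2-fold. At 1000 UMIs per cell, 34.6% of members (31.0% to 38.4%) against 45.1% of other neutrophils (43.3% to 46.9%) had a Cxcr4 UMI at 9 h, and 48.6% (42.8% to 54.5%) against 52.3% (49.5% to 55.2%) at 2 h, where the intervals overlapped. Without thinning the 2 h shares were 72.4% and 68.1%, and Pdgfra cells had 0.648% at 9 h and 0.672% at 2 h after thinning.

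The intervals of Mrgpra2b, a Mas-related receptor on the marker list, were apart at 9 h and overlapped at 2 h. It stood at 313 CPM (287 to 341) against 169 CPM (159 to 179) at 9 h, and at 143 CPM (118 to 170) against 136 CPM (122 to 150) at 2 h. Its near copy Mrgpra2a stood at 63.1 CPM against 46.6 CPM at 9 h and at 42.1 CPM against 41.7 CPM at 2 h, and how the counting divided reads between the pair is not known. Anxa1, which encodes annexin A1, stood at 159 CPM against 79.7 CPM at 9 h and at 421 CPM against 340 CPM at 2 h. Slc2a3, a glucose transporter, stood at 338 CPM against 208 CPM at 9 h and at 796 CPM against 806 CPM at 2 h. Whether these differences between the libraries exceed the spread between mice was not tested.

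Retnlg was graded over the Mmp8 and Ngp count, on both sides of the threshold, in both libraries. In the 9 h library Retnlg stood at 2914 CPM in cells with 0 such UMIs, 4884 with 1, 5776 with 2, 8717 with 3 to 4, 11710.2 with 5 to 9 and 15350.1 with 10 or more. In the 2 h library the same steps gave 2516, 3964, 5546, 6756, 8734 and 17304 CPM. Lcn2 stood at 2209.8 CPM with 0 UMIs and 5089 CPM with 10 or more at 9 h, and at 960.0 CPM and 2421 CPM at 2 h. The last 2 h level of Lcn2 was 1965 CPM without its top cell, which held 47 of 218 UMIs. Ifitm6 stood at 146 CPM with 0 UMIs and 780.4 CPM with 10 or more at 9 h, and at 223 CPM and 955 CPM at 2 h. In that last step 1 cell held 37 of 86 Ifitm6 UMIs, and without it the level was 588 CPM. Cxcr4 at 9 h stood at 831, 684, 665, 595, 506 and 414 CPM over the same steps. At 2 h it stood at 977, 864, 865, 878, 831 and 399.8 CPM, so that the lower level sat in the last step, which held 36 Cxcr4 UMIs. Ccl3, which encodes a monocyte- and neutrophil-drawing chemokine, stood at 10927 CPM with 0 UMIs and 5153 CPM with 10 or more at 9 h, and at 1974 CPM and 1366 CPM at 2 h. At 2 h the lowest step was 1217 CPM with 5 to 9, but 1 cell held 40 of 123 Ccl3 UMIs in the last step. Without the top cell of each step these 2 levels were 1108.5 CPM with 5 to 9 and 988.7 CPM with 10 or more. The highest step rested on 77 cells at 9 h and 27 at 2 h, and median depth ran between 1593 and 2356 UMIs over the 9 h steps and between 1882 and 2945 UMIs over the 2 h steps.

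**Figure D3:**
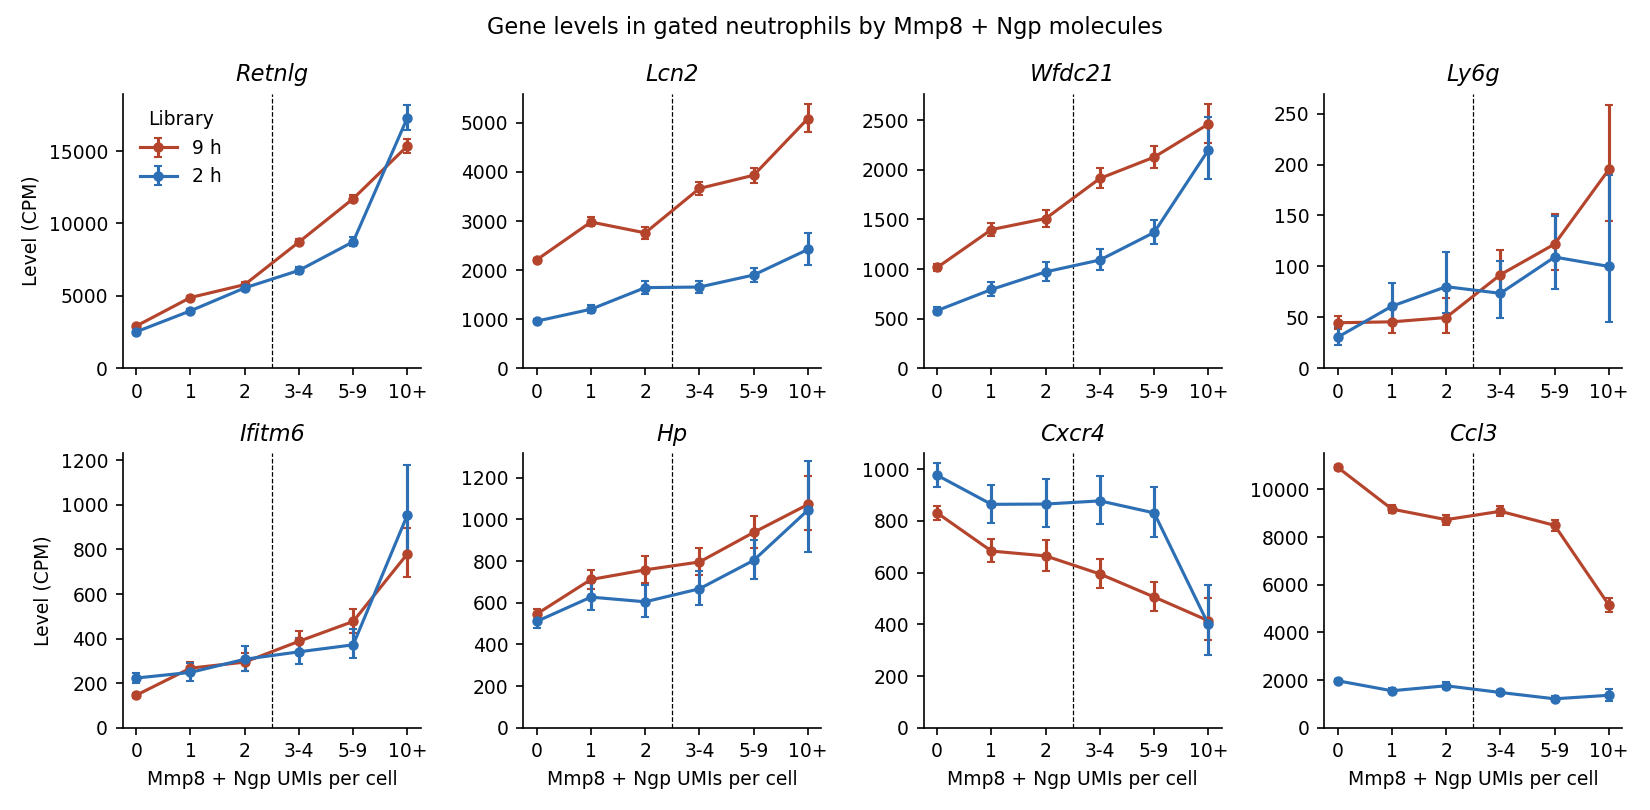
Levels of 8 genes (CPM, linear vertical axes from 0) in gated neutrophils by the number of Mmp8 and Ngp UMIs per cell, low to high, with the 9 h library in red and the 2 h library in blue; bars are 95% Poisson intervals and the dashed line is the threshold of 3 UMIs. Retnlg climbs to 15350.1 CPM at 9 h and 17304 CPM at 2 h in cells with 10 or more, while Cxcr4 declines over the 9 h steps to 414 CPM and at 2 h reaches 399.8 CPM in the last step alone.

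Cells with Ngp in addition to Mmp8 had more Retnlg and less Il1b than those with Mmp8 alone. Cells with Mmp8 alone needed 3 Mmp8 UMIs to be members and cells with both did not, so their Mmp8 levels are not compared. Retnlg stood at 17520.0 CPM with both and 9275 CPM with Mmp8 alone at 9 h, and at 14182 CPM and 7723 CPM at 2 h. Ifitm6 stood at 795 CPM and 409 CPM at 9 h, and at 834 CPM and 334 CPM at 2 h, or 581 CPM and 318 CPM without the cell richest in Ifitm6 in each group. Lcn2 stood at 4780.5 CPM and 3783 CPM at 9 h, and at 3046 CPM and 1622 CPM at 2 h. Il1b, which encodes the cytokine interleukin-1 beta, was lower with both genes: 6558 CPM (6280 to 6844) and 9169 CPM (9008 to 9331) at 9 h, and 4500.4 CPM (4144 to 4879) and 7831 CPM (7629 to 8038) at 2 h. Median depth was 2160 UMIs with both and 1945 with Mmp8 alone at 9 h, and 2635 and 2453 at 2 h. The split used Ngp counts of the same cells, so these values are a description.

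Most inflammatory mediators lay slightly below 0 in members. In that list 15 of 16 measured genes had a log2 ratio below 0 at 9 h and 14 of 15 at 2 h, with medians of -0.19 and -0.21, and none passed 1.5-fold in either library. Of all measured genes 57.3% were below 0 at 9 h and 58.3% at 2 h. Of 81 ribosomal protein genes, a list added later, 56 were below 0 at 9 h (median -0.08) and 76 at 2 h (median -0.18). Why most mediators lay below 0 was not tested. Il1b stood at 8648 CPM in members against 9856 CPM in other neutrophils at 9 h, and at 7305 CPM against 8444 CPM at 2 h. Cxcl2, a neutrophil-drawing chemokine, stood at 49350 CPM against 54528 CPM at 9 h and at 20775 CPM against 23185 CPM at 2 h. Ccl3 stood at 8265 CPM against 10285 CPM at 9 h and at 1359.8 CPM against 1846 CPM at 2 h. A level that is high in members lowers every other level in CPM, and S100a8 and S100a9 took 11.9% of member UMIs against 8.94% at 9 h and 14.7% against 11.3% at 2 h. With CPM taken without S100a8, S100a9, Mmp8 and Ngp, the inflammatory medians were -0.14 and -0.15 and the medians of all genes 0.01 and -0.0023.

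Most survival genes also lay below 0, while the interferon medians were near 0. In the survival and death list 10 of 12 measured genes were below 0 at 9 h and 8 of 10 at 2 h, with medians of -0.24 and -0.35, beside the shares of all genes given above. Without S100a8, S100a9, Mmp8 and Ngp in the CPM they were -0.19 and -0.30. Bcl2a1b, an anti-apoptotic BCL2 family gene with near-identical copies, stood at 852 CPM (809 to 897) against 1266 CPM (1238 to 1294) at 9 h, and at 87.7 CPM (69.0 to 110) against 144 CPM (130 to 160) at 2 h. Mcl1, the main survival factor of neutrophils, stood at 3808 CPM against 4061 CPM at 9 h and at 3813 CPM against 4073 CPM at 2 h. In the interferon list the medians were 0.05 over 6 measured genes at 9 h and -0.05 over 12 at 2 h, with none past 1.5-fold. Isg15, an interferon-induced ubiquitin-like protein, stood at 107 CPM against 119 CPM at 9 h and at 474 CPM against 526 CPM at 2 h. In the actin and migration list 13 of 14 genes were above 0 at 9 h (median 0.19) and 8 of 14 at 2 h (median 0.03), with none past 2-fold.

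**Figure D4:**
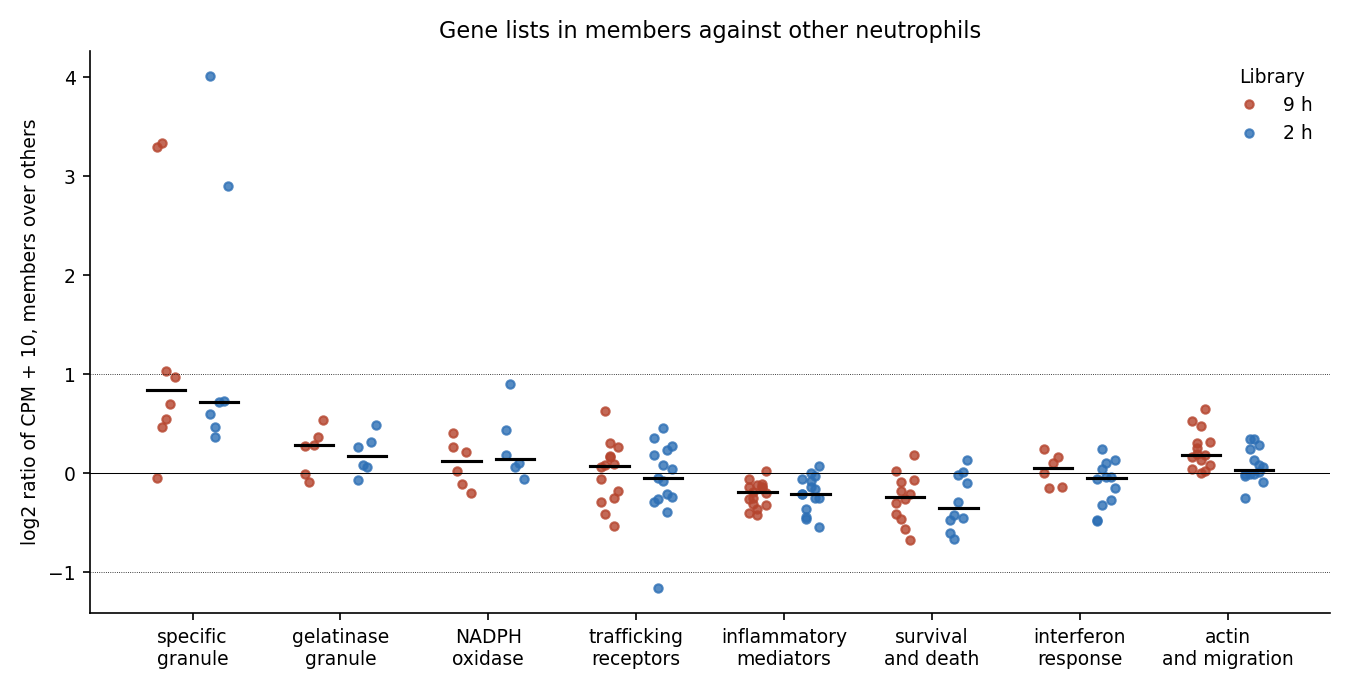
Log2 ratio of CPM plus 10 in Mmp8 or Ngp neutrophils over other neutrophils for the measured genes of 8 lists (points), with 9 h in red on the left and 2 h in blue on the right of each pair, black bars at the list medians and dotted lines at 2-fold. The specific granule medians of 0.83 and 0.72 include the rule genes Mmp8 and Ngp and are 0.63 and 0.60 without them, and most inflammatory mediators lie just below 0.

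The genes that were lower in members were read beside RNA of other cell types, and whether that RNA made the difference was not tested. Among the 10 genes lower past 1.5-fold in both libraries were Prg4 (lubricin), Clic4 (an intracellular chloride channel protein), Uap1 and Ugdh (sugar nucleotide enzymes) and Ccl7 (a monocyte-drawing chemokine). Odc1, Ifi207, Slc38a1 and Zmiz1 were also among them. Prg4 stood at 160 CPM in members against 268 CPM in other neutrophils at 9 h and at 8.18 CPM against 67.8 CPM at 2 h. The 7 fibro-adipogenic progenitor markers, of which Pdgfra was at 0 by the gate, summed to 607 CPM in members against 659 CPM in other neutrophils at 9 h and to 590.4 CPM against 1907 CPM at 2 h. Its 6 other markers (Dcn, Col1a1, Col1a2, Col3a1, Gsn and Lum) were all among the 50 genes lower past 2-fold at 2 h. One cell held 47.7% of the 9 h member sum and another held 18.2% of the 2 h sum in other neutrophils. Of the 50 genes lower at 2 h, 39 had over 10% of their UMIs in other neutrophils in 1 cell. Clec4n, also 1 of the 50, stood at 79.5 CPM in members against 179 CPM in other neutrophils. Its top cell held 2.08% of its UMIs in other neutrophils. Genes lower at 2 h numbered 47 without the top cell of each gene, 24 with a stricter gate (also no UMI of Dcn, Col1a1, Cd74, Csf1r or Fabp4) and 12 in cells of 1000 to 3000 UMIs.

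The monocyte or macrophage difference at 2 h rested on 1 cell. The 8 monocyte or macrophage markers, with C1qa and Ccr2 at 0 by the gate and 5 of 8 detected in members, summed to 115 CPM in members against 293 CPM in other neutrophils at 9 h and to 751 CPM against 136 CPM at 2 h. A 2 h cell of 12927 UMIs held 520 of the 593 UMIs of Cd74, the invariant chain of class II antigen presentation, in the 2 h members. Without the top cell of each gene the 2 h log2 ratio of Cd74 was 0.45 in place of 3.03. Eosinophil, basophil or mast cell, B, T or NK, platelet, erythroid and muscle fibre markers each summed to at most 15.2 CPM in members in both libraries, and endothelial markers to 90.4 CPM at 9 h and 56.1 CPM at 2 h.

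Between the times the members shared most differences with other neutrophils of the same libraries. In members 3341 genes were measured, of which 192 were higher at 9 h past 2-fold (5.75%) and 197 lower (5.90%). In other neutrophils 201 of 3494 were higher (5.75%) and 297 lower (8.50%). Of the higher genes 147 were in both sets, which is 76.6% of the members' and 73.1% of the others', and of the lower genes 163, or 82.7% and 54.9%. With the scaling factors of edgeR the median log2 ratio of members was 0.03 in place of -0.09, a shift of 0.12, and the counts became 241 higher and 144 lower. At 1.5-fold 443 genes were higher (13.3%) and 584 lower (17.5%) in 9 h members, and 705 were lower in other 9 h neutrophils (20.2%).

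Among the marker genes, Lcn2 and Mrgpra2b were higher past 2-fold in the 9 h members. Lcn2 stood at 3982 CPM in 9 h members against 1838 CPM in 2 h members, a ratio of 2.17, and the ratio in other neutrophils was 2.19. Mrgpra2b stood at 313 CPM against 143 CPM, a ratio of 2.19 (1.80 to 2.69), and the ratio in other neutrophils was 1.25 (1.10 to 1.41). Wfdc21 had a ratio of 1.57, Retnlg of 1.25 and Mmp8, as chosen, of 1.20. Ngp stood at 187 CPM in 9 h members against 253 CPM in 2 h members. Since 1 cell held 104 of its 216 UMIs (48.1%) in the 2 h members, no direction is given for Ngp. Pglyrp1 and Lyz2 were lower in the 9 h members, at 239 CPM against 628 CPM and at 262 CPM against 731 CPM. Other neutrophils had ratios of 0.230 for Pglyrp1 and 0.295 for Lyz2, against 0.381 and 0.358 in members. Granule genes did not share 1 direction between the libraries. Of 8 measured specific granule genes 3 were higher past 2-fold in the 9 h members and 2 were lower, beside 5.75% and 5.90% of all genes, and in other neutrophils 3 of 7 were higher and 2 lower.

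The leading genes of the 9 h members by the naming rule were Cxcl5, Ptx3, Bcl2a1a, Chil3, F10, Il1a, Prg4, Fmnl2, Bcl2a1b, Cd177, Schip1 and Olfm4. Single cells held 84.1% of the Cxcl5 UMIs and 66.3% of the Ptx3 UMIs, so the size of those 2 ratios rests largely on 1 cell each. For Ptx3 that cell held 453 of 683 UMIs in the 9 h members, and the 2 h members had 5 UMIs. Other neutrophils had 1151 Ptx3 UMIs at 9 h and 126 at 2 h. Chil3 stood at 336 CPM in 9 h members against 15.2 CPM in 2 h members, and at 241 CPM against 8.94 CPM in other neutrophils. Cd177 stood at 348 CPM against 32.7 CPM in members and at 360 CPM against 18.2 CPM in other neutrophils. Bcl2a1b stood at 852 CPM against 87.7 CPM in members and at 1266 CPM against 144 CPM in other neutrophils. F10, which encodes coagulation factor X, stood at 132 CPM against 3.51 CPM in members, the second value resting on 3 UMIs, with a ratio of 37.7 (12.7 to 184). Olfm4, which encodes the granule protein olfactomedin-4 of a neutrophil subset, stood at 233 CPM (211 to 258) against 22.2 CPM (13.4 to 34.7) in members, a ratio of 10.5, while the ratio in other neutrophils was 4.48.

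Several interferon genes were among the lowest ratios at 9 h. The 12 lowest ratios were those of Cd74, Rsad2, H2-Ab1, Pmvk, Ifi27l2a, H2-Eb1, Crip1, Oas3, H2-Aa, Rtp4, Isg15 and Smchd1, and the 4 class II genes among them (Cd74 and the H2 genes) rested on the single 2 h cell. Rsad2, the antiviral protein viperin, stood at 14.9 CPM in 9 h members against 178 CPM in 2 h members, and at 21.5 CPM against 182 CPM in other neutrophils. Isg15 stood at 107 CPM against 474 CPM in members and at 119 CPM against 526 CPM in other neutrophils. Of 9 measured interferon genes 6 were lower past 2-fold in the 9 h members and 1 higher, with a median log2 ratio of -1.92, and of 12 in other neutrophils 10 were lower and 1 higher, with a median of -1.73. Of 16 inflammatory mediators 10 were higher past 2-fold in members at 9 h and none lower, with a median of 1.499, and in other neutrophils 10 were higher, with a median of 1.64. Ccl4, a chemokine close to Ccl3, stood at 9581 CPM against 1286 CPM in members and at 12343 CPM against 1364 CPM in other neutrophils. Time and library cannot be told apart here, because each time is 1 library.

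**Figure D5:**
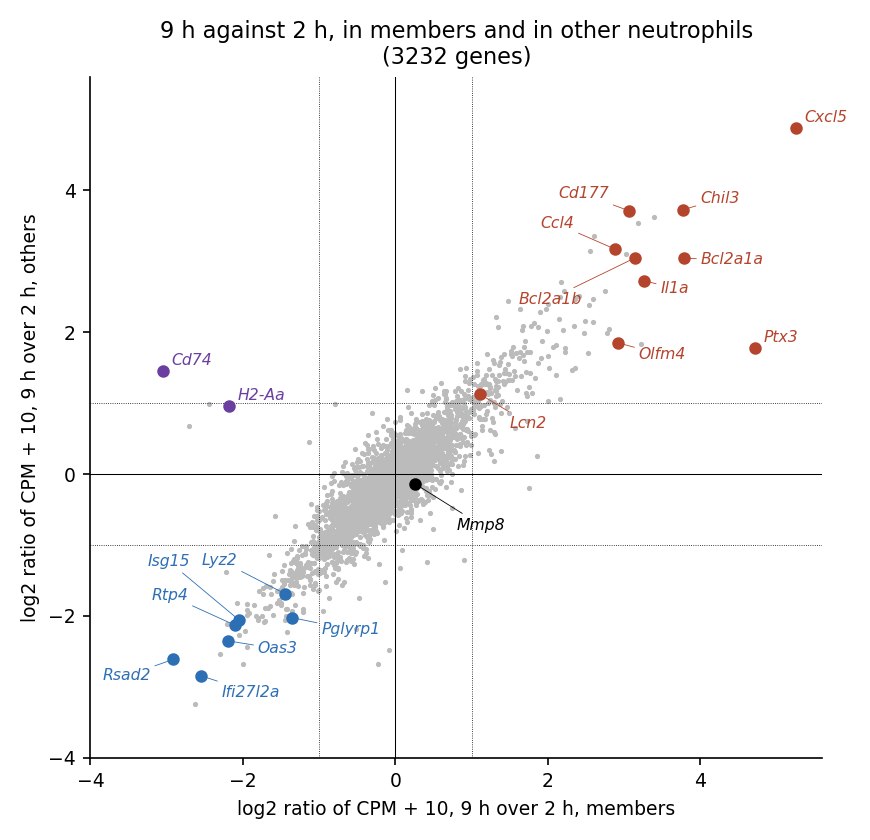
Log2 ratio of CPM plus 10, 9 h over 2 h, in Mmp8 or Ngp neutrophils (horizontal axis) and in other neutrophils of the same libraries (vertical axis), for 3232 genes measured in both, with dotted lines at 2-fold. Chil3, Cd177 and Bcl2a1b (red) and Rsad2 and Isg15 (blue) lie near the diagonal, while Cd74 and H2-Aa (purple) lie off it, with 87.7% and 83.9% of their 2 h member UMIs in 1 cell.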

How the data were processed

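Single-cell libraries from 1 sample per time (9 h and 2 h after injury) were analysed. The deposited counts are UMIs per gene and barcode, made by the authors; the submitters' processing notes name Cell Ranger 5.0.0 and mm10. No annotation release was given in the sources used here. Cells with at least 200 genes, 500 UMIs and at most 20% mitochondrial UMIs were kept (8147 of 8790 barcodes at 9 h, 35127600 UMIs; 4900 of 5729 at 2 h, 27598413 UMIs). No doublet caller was run; a stricter gate was tried instead. The libraries shared 12 kept barcodes and no member barcode.

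UMIs were summed per group and scaled to CPM, with Poisson intervals for levels, conditional binomial intervals for ratios and Clopper-Pearson intervals for shares. Log2 ratios used a pseudocount of 10 CPM, which understates ratios of low genes. Sums, ratios and intervals were tested on simulated counts that held counting error only, so the spread between cells was not tested. Of genes simulated 2-fold higher in members, 26% at 9 h and 38% at 2 h passed the 2-fold threshold. Of those simulated 2-fold lower, 20% passed in each library. Named genes had at least 100 CPM in 1 group and, for members against other neutrophils, passed 2-fold in both libraries, which gave Retnlg; between times the 12 highest and 12 lowest ratios were named. Left out of naming were unnamed models and genes of mitochondria, ribosomal proteins and haemoglobin. The cells, the 15 gene lists and these rules were chosen with earlier results of these data known, and the class II list, the ribosomal protein list and the 1.5-fold threshold were added later. Of 32285 gene identifiers 32235 matched GENCODE M21; upstream sequences are from RefSeq, which held 5 of the 6 marker genes. Python 3.11.15, numpy 2.4.6, scipy 1.17.1, pandas 2.3.3, matplotlib 3.10.9, R 4.3.3 and edgeR 4.0.16 (TMM factors) were used. Some genes are not reported here.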

Additional observations from a re-analysis of the deposited data

Results flagged for a closer look

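For 5 genes the log2 ratio of members over other neutrophils had opposite signs in the 2 libraries and a size past 2-fold in each; the difference between the libraries was not tested. Cd74 had -1.48 at 9 h and 3.03 at 2 h, H2-Aa -1.01 and 2.14, H2-Ab1 -1.26 and 2.13, H2-Eb1 -1.45 and 1.98, and Ptx3 1.10 and -1.84. In the 2 h members 1 cell held 87.7% of the Cd74 UMIs, 83.9% of H2-Aa, 90.1% of H2-Ab1 and 86.9% of H2-Eb1, and in the 9 h members 1 cell held 66.3% of the Ptx3 UMIs. Without the top cell of each gene the 2 h ratios were 0.45 for Cd74, 0.18 for H2-Aa, -0.50 for H2-Ab1 and -0.37 for H2-Eb1, and the 9 h ratio of Ptx3 was -0.02. The 9 h class II values also leaned on single cells, which held 46.8% (Cd74) to 72.3% (H2-Eb1) of member UMIs. Without the top cell these 9 h ratios were -1.79 for Cd74, -1.64 for H2-Aa, -1.58 for H2-Ab1 and -2.18 for H2-Eb1. With the stricter gate, which removes Cd74, they were 0.30 for H2-Aa, -0.49 for H2-Ab1 and -0.78 for H2-Eb1.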

How the results depend on the processing

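No paired analysis was possible because there is 1 library per time. Of 1227 gene ratios recomputed under the alternatives, 910 moved by less than their counting interval, 304 moved by more and 13 reversed; of 567 list medians the numbers were 531, 33 and 3. The member share was 25.04% at 9 h and 28.8% at 2 h with at least 2 UMIs, 8.37% and 8.51% with at least 5, 21.3% and 21.2% with at least 10 per 10000, 7.91% and 5.95% after thinning (ratio 1.33), and 15.7% at 2 h in cells of 1000 to 3000 UMIs.

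Genes higher in members at 9 h numbered 8 with at least 2 UMIs, 28 with at least 5, 32 in cells of 1000 to 3000 UMIs, 26 after thinning, 24 with a pseudocount of 1 CPM and 65 at 1.5-fold. At 2 h they numbered 7 with the stricter gate, 19 without the filter on low counts, 27 with a pseudocount of 1 CPM, 64 at 1.5-fold and 5 without the top cell of each gene. Genes lower at 9 h numbered 35 with at least 10 UMIs per 10000, 4 with the stricter gate, 14 without the filter and 44 at 1.5-fold. At 2 h they numbered 77 with at least 5 UMIs, 12 in cells of 1000 to 3000 UMIs, 24 with the stricter gate, 78 without the filter, 81 with a pseudocount of 1 CPM and 157 at 1.5-fold. In both libraries 6 genes were higher with at least 5 UMIs and 15 at 1.5-fold, and 2 were lower with at least 5 UMIs, 18 with at least 10 per 10000, 1 without the filter, 10 at 1.5-fold and 3 without the top cell. Between times 443 genes were higher and 584 lower at 1.5-fold, and 121 lower after thinning. The cause of these moves was not tested.

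The values counted as reversed were 2 h ratios of class II genes and the 9 h ratio of Ptx3. The 9 h ratio of H2-Aa with the stricter gate, 0.30, was not counted among them. With at least 10 UMIs per 10000 the log2 ratios were -1.37 for Cd74, -1.18 for H2-Aa, -1.65 for H2-Ab1, -1.54 for H2-Eb1, -1.46 for the class II median and -2.01 for Ptx3. In cells of 1000 to 3000 UMIs they were -0.19 for Cd74, -0.92 for H2-Ab1 and for the median, -1.54 for H2-Eb1 and -0.17 for Ptx3. The stricter gate gave -0.28 for Ptx3. Leaving out the top cell gave -0.50 for H2-Ab1, -0.37 for H2-Eb1, -0.093 for the median and -0.020 for Ptx3. The 1.5-fold threshold, the top-cell alternative and the granule list without the rule genes were chosen after seeing the data. Depth limits genes under about 20 CPM, which were not measured, and the intervals leave out the spread between cells and mice.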

Other observations

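Olfm4 marked a minority of members. At 9 h 74 of 654 members (11.3%) carried 392 Olfm4 UMIs, 53 of them with 3 or more, against 237 of 3275 other neutrophils (7.24%), and at 2 h 7 of 294 members (2.38%) against 36 of 1293 other neutrophils (2.78%). In the 9 h members Mmp8 stood at 1744 CPM with Olfm4 and 2106 CPM without it, Retnlg at 10062 CPM and 11018 CPM, and Lcn2 at 3637 CPM and 4042 CPM. After thinning to 1000 UMIs, 7.57% of 9 h members and 6.17% of other 9 h neutrophils had an Olfm4 UMI, against 0 of 1389 Pdgfra cells. Both kinds of neutrophil carried Olfm4.

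Adpgk and Bmx, picked after their values were seen, were too low at 9 h to count as measured. Adpgk, an ADP-dependent glucokinase, had 30 UMIs in members against 29 in other neutrophils at 9 h (17.9 CPM against 4.64 CPM) and 28 against 24 at 2 h (32.7 CPM against 8.94 CPM), ratios of 3.84 (2.23 to 6.64) and 3.66 (2.05 to 6.60). In the 2 h members 1 cell held 7 of the 28 Adpgk UMIs. Bmx, a TEC family kinase, stood at 17.9 CPM against 4.32 CPM at 9 h and at 67.8 CPM against 27.6 CPM at 2 h.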
